A study of Caenorhabditis elegans with 15 samples.

Results

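Messenger RNA from the genes that encode the proteins of the cytosolic ribosome was measured in wild-type Caenorhabditis elegans larvae exposed to ursolic acid (UA), a plant triterpenoid, and in control larvae. The genes were taken by name, as all genes whose name starts with rpl- (large subunit) or rps- (small subunit), the stalk genes rla-0, rla-1 and rla-2, and ubl-1. This rule gave 80 of the 20541 genes in the count table, 48 of the large and 32 of the small subunit, and used no measured value. All 80 genes are annotated as protein coding in WBcel235, and all 80 passed the filter on low counts, among 14037 tested genes.

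RNA sequencing (RNA-seq) was performed on whole N2 animals in 3 groups of 5 libraries. Synchronized larvae were fed OP50 bacteria for 34 h up to the L3 stage, and were then kept for 12 h with UA at 50 µM, with the solvent DMSO (the vehicle control) or without treatment, and were harvested as L4 larvae. The labels number the libraries by batch, and each of the 5 batches holds 1 library of each group. They do not say whether a batch is a culture, an extraction or a sequencing run. Total counts were 20644549 to 27474535 per untreated library, 22148505 to 24018538 per DMSO library and 12485842 to 24872334 per UA library, with the lowest total in the UA library of batch 5. RNA was selected by its poly(A) tail, and the intestine, muscle, neuron, germline, oocyte and yolk, and moulting marker lists had no gene at 0 counts in any library.

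Ribosomes read messenger RNA and link amino acids into protein. The small subunit decodes the message, the large subunit forms the peptide bond, and each ribosome carries its proteins in fixed proportions. Their messages are among the most abundant of growing animals, because a larva builds ribosomes as it grows. In many eukaryotes these genes are regulated together with nutrient supply, through the TOR kinase among other routes.

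The 80 genes took 10.9% to 13.3% of all counts in the 15 libraries. They made up 45 of the 100 most abundant genes and 3 of the 10 most abundant. The highest was rpl-3, whose protein borders the catalytic centre of the large subunit, with 0.518% of all counts. It was followed by rla-0, the protein that anchors the large-subunit stalk (0.338%), and rpl-7 (0.335%). Levels are given as CPM, the reads of a gene per 1e6 reads of the library, with library sizes scaled by trimmed mean of M-values (TMM) factors. CPM per kb divides the level by the exon length of the gene.

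Per kb of exon, 77 of the 80 genes lay within 672 to 5619 CPM per kb, and the other 3 lay far lower. The highest 5 were rps-25 at 5619, rps-23 at 5035, rps-8 at 4482, rpl-7 at 4189 and rpl-10 at 4083 CPM per kb. RPS-23 lines the decoding centre of the small subunit and RPL-10 lies near the catalytic centre of the large subunit. The lowest 5 were rps-22 at 939, rpl-25.1 at 672, rpl-24.2 at 133, rpl-37 at 25.11 and rpl-42 at 4.89 CPM per kb. RPL-24.2 resembles a yeast protein that acts in assembly of the large subunit rather than in the finished ribosome. Among the 77 genes over 100 CPM, the median was 2347 CPM per kb for the 45 of the large subunit and 2868 for the 32 of the small subunit. The 12 of these genes with at most 400 bp of exon had a median of 2079 CPM per kb, against 2576 for the 65 longer genes. The part of exon length in the order of levels was not tested.

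**Figure D1:**
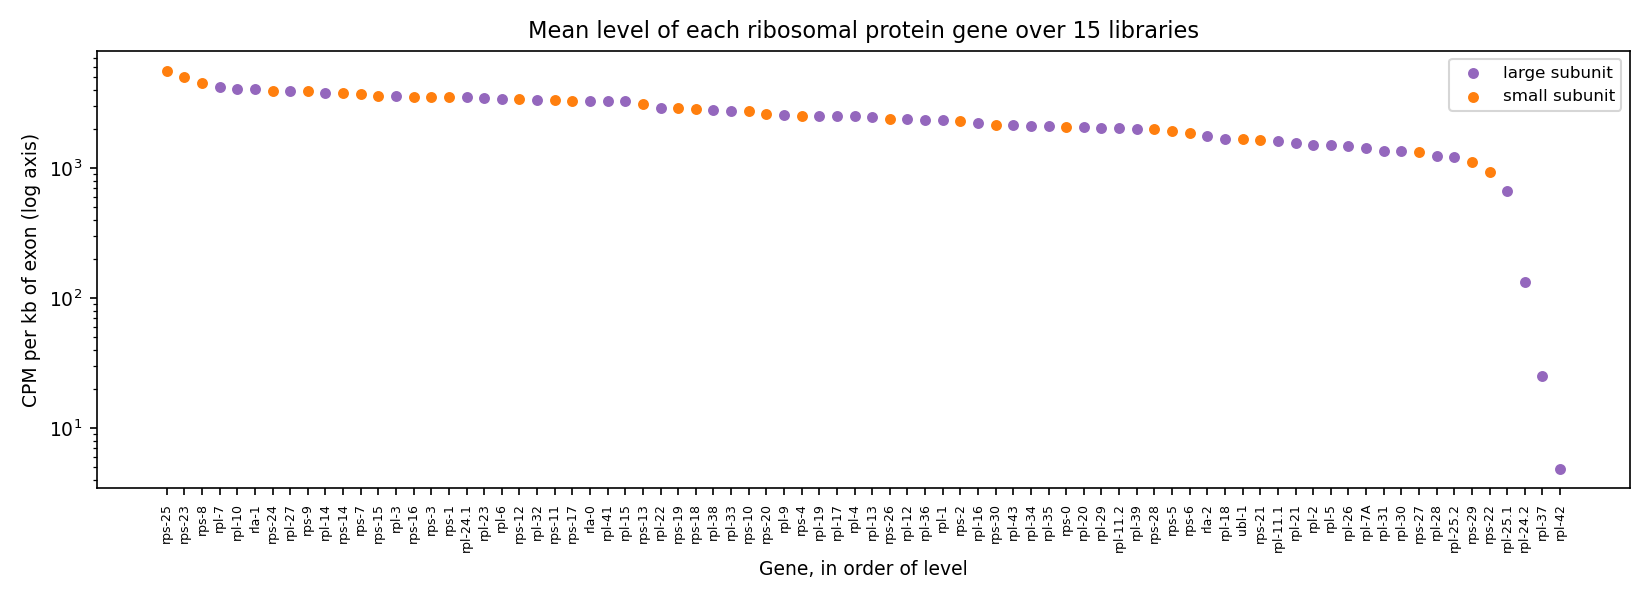
Mean level of each of the 80 genes over the 15 libraries, in CPM per kb of exon on a log axis, in order of level, coloured by ribosomal subunit. The curve falls slowly from 5619 for rps-25 to 672 for rpl-25.1, and then drops to 133, 25.11 and 4.89 for rpl-24.2, rpl-37 and rpl-42.

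The genes are spread over the genome, with 23 on chromosome I, 10 on II, 19 on III, 18 on IV, 8 on V and 2 on X. In all, 5 genes overlap another gene on the same strand (rpl-7, rpl-23, rps-20, rps-4 and rpl-5) and 10 overlap one on the opposite strand, among them rla-1, rpl-2 and rpl-39. The library kit keeps strand, but the strand setting of the counting and the handling of reads that match several genes are not given in the sources used here. Reads of rpl-11.1 and rpl-11.2, of rpl-25.1 and rpl-25.2, and of other close copies may therefore have been shared or lost.

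Whether exposure to UA changed the share of counts on these genes was examined first. In untreated larvae of batches 1 to 5 the share was 11.8%, 12.8%, 12.8%, 11.04% and 12.1%. In DMSO larvae it was 11.4%, 13.3%, 12.8%, 10.9% and 12.5%, and in larvae exposed to UA it was 12.0%, 12.6%, 12.4%, 10.98% and 12.2%. The ranges of the 3 groups overlapped, and in each of them batch 4 was lowest and batch 2 or 3 highest. The means were 12.1% ± 0.724 for untreated, 12.2% ± 1.004 for DMSO and 12.0% ± 0.620 for UA (SD, n = 5 each). The largest gap between group means was 0.158 percentage points, with p = 0.722 in an exact permutation test that exchanged treatments within batches (1296 arrangements). Against DMSO the share in UA larvae was higher in 2 of 5 batches, with a mean log2 difference of -0.02 and p = 0.562 in an exact two-sided sign-flip test. Against untreated larvae it was higher in 2 of 5 batches (-0.01, exact p = 0.5), and DMSO exceeded untreated in 3 of 5 batches (0.01, exact p = 0.812). With 5 pairs the sign-flip test cannot give a p below 0.0625.

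**Figure D2:**
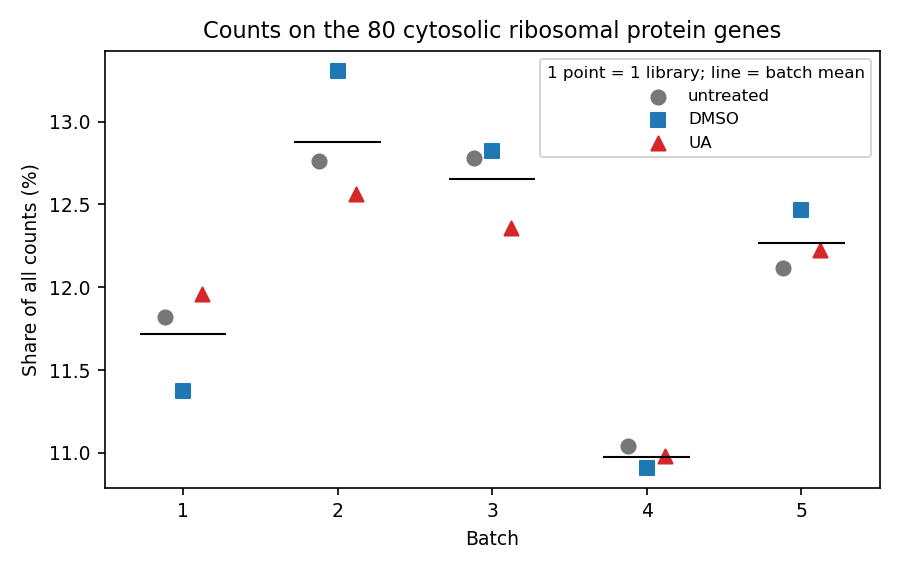
Share of all counts on the 80 genes, in percent, for each library (1 point) by batch, with the treatment groups in different colours and shapes and the batch mean as a line. The axis does not start at 0. The 3 libraries of batch 4 lie between 10.9% and 11.04%, below the other 12 libraries, and within each batch the order of the groups varies.

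No ribosomal protein gene was called between treatments by edgeR at the threshold used. Genes were tested with edgeR's quasi-likelihood test, with group and batch as terms, and a call needed an adjusted p (Benjamini-Hochberg over all tested genes) under 0.02. Between UA and DMSO, edgeR called 0 of the 80 genes, while 0.271% of all tested genes were called. Between UA and untreated it called 0 of 80 (1.05% of all tested genes), and between DMSO and untreated also 0 of 80 (0.121%). DESeq2 called 0, 1 and 0 of the 80 genes in the same comparisons, the 1 being ubl-1. The share of all tested genes called by DESeq2 is not given here, so these counts are not read as a result about the family. These comparisons share libraries, so their values are not independent of each other.

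Without adjustment, 25 of the 80 genes had an edgeR p under 0.05 between UA and DMSO, 4 higher and 21 lower in UA, a share of 31.2% where all tested genes gave 14%. Between UA and untreated there were 20, 8 higher and 12 lower (25% against 12.3%), and between DMSO and untreated there were 2 (2.5% against 7.91%). The differences behind these counts were small. The median log2 fold change of the 80 genes was -0.04 from DMSO to UA, -0.04 from untreated to UA and 0.02 from untreated to DMSO, and the median over all tested genes was 0.00, 0.00 and 0.01. The standard errors were 0.0343 to 0.0688 for the 77 genes over 100 CPM in the UA and DMSO comparison. The range ran from -0.50 (rpl-37) to 0.21 (ubl-1) between UA and DMSO, from -0.25 (rpl-42) to 0.28 (ubl-1) between UA and untreated, and from -0.10 (rpl-25.2) to 0.25 (rpl-37) between DMSO and untreated.

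The difference between UA and DMSO changed sign from batch to batch for nearly the whole family. In batch 1, 79 of 80 genes were higher in the UA library (median log2 difference 0.06), and in batch 2, 0 of 80 were (median -0.15). In batches 3, 4 and 5 the numbers higher were 16, 48 and 40, with medians of -0.10, 0.02 and -0.00. The DMSO library of the same batches lay on the opposite side of the untreated one, with 3 of 80 genes higher in batch 1 and 79 of 80 in batch 2, so the same DMSO libraries enter both differences. Only rpl-42 lay on 1 side of DMSO in all 5 batches, being lower in UA (all tested genes, 5.01% above and 5.98% below in every batch). Against untreated, 27 of the 80 genes were lower in the UA library of all 5 batches and 2 were higher, rps-10 and rpl-20, where 5.12% of all tested genes were lower and 6.06% higher. None of these 29 genes was called by edgeR. In DMSO against untreated 1 gene, rpl-35, was above in all 5 batches, where 5.16% of all tested genes were above and 4.23% below.

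The 3 stalk genes rla-0, rla-1 and rla-2 encode the proteins that recruit the elongation factors to the large subunit. The gene rla-0 lies on chromosome I from 10567894 to 10569017, rla-1 on chromosome I from 2069086 to 2069575, and rla-2 on chromosome IV from 13369425 to 13370285. The level of rla-2 was 772, 877, 845, 738 and 772 CPM in untreated larvae of batches 1 to 5. It was 720.3, 989, 925, 706 and 852 CPM in DMSO larvae, and 738, 817, 759, 668 and 720.3 CPM in UA larvae. The UA library was lower than the DMSO library in batches 2 to 5 and higher in batch 1, and the groups overlapped. The log2 fold change between UA and DMSO was -0.17 ± 0.0448 (SE), with an edgeR adjusted p of 0.0992, the lowest of the 80 genes in that comparison. The partner gene rla-1 gave -0.07 ± 0.0362 and rla-0 gave 0.07 ± 0.0494 (edgeR adjusted p = 0.399 and 0.579).

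The gene nearest to a call was ubl-1, whose protein is a ubiquitin-like domain fused to the small-subunit protein S27a. It lies on chromosome III from 3068310 to 3069210 and has 3 exons. Its level was 873, 1045, 859, 744 and 855 CPM in untreated larvae of batches 1 to 5, and 844, 1126, 1004, 804 and 811 CPM in DMSO larvae. In larvae exposed to UA it was 1089, 980.1, 1232, 966 and 1016 CPM. The UA library was the highest of its batch in 4 batches and the lowest in batch 2, and the ranges of the groups overlapped. Means were 875 ± 108 for untreated, 918 ± 142 for DMSO and 1057 ± 109 for UA (CPM, SD, n = 5 each). The log2 fold change was 0.28 ± 0.0659 against untreated (edgeR adjusted p = 0.0357) and 0.21 ± 0.0659 against DMSO (edgeR adjusted p = 0.151), neither under the threshold of 0.02.

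The result for ubl-1 turned on the UA library of batch 2. Without that library edgeR gave 0.37 against untreated (adjusted p = 0.000151) and 0.31 against DMSO (adjusted p = 0.00233). Then rps-5, a protein of the small-subunit head, was called as well, at 0.21 in both comparisons (edgeR adjusted p = 0.00889 against untreated and 0.0184 against DMSO), and rpl-1 (0.22) and rpl-43 (0.26) were called against untreated. The library left out is the one in which 0 of the 80 genes lay above DMSO, so leaving it out favours calls of higher genes. The share of all tested genes called without it is not given here, and these calls are not read as a result about the family. Across the settings tried, ubl-1 stayed above 0 in both comparisons.

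**Figure D3:**
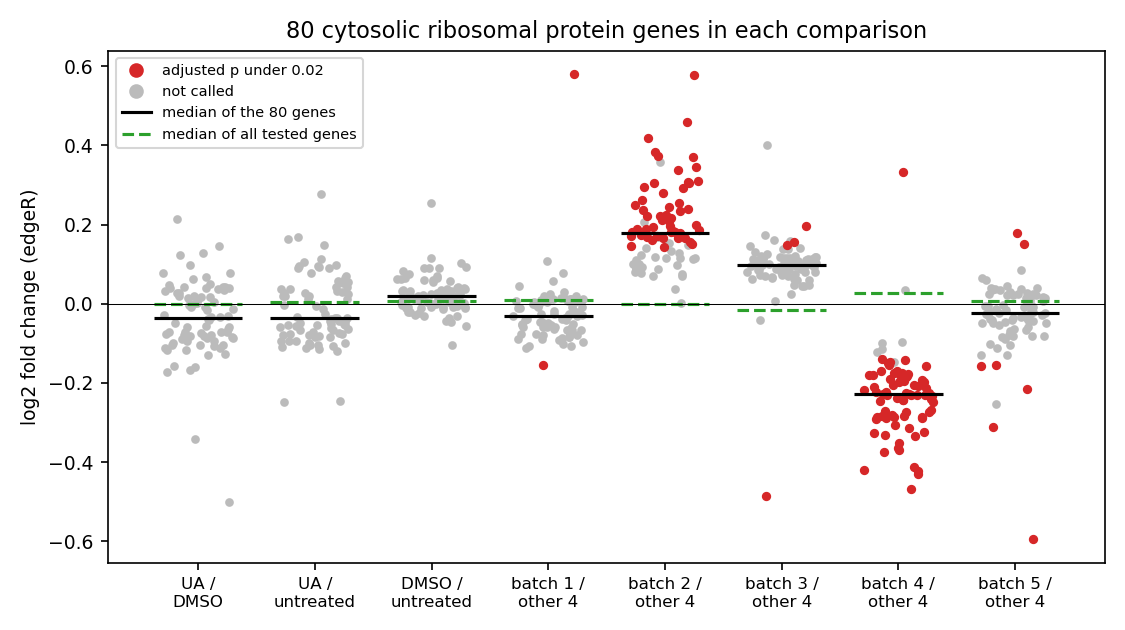
Log2 fold change (edgeR) of each of the 80 genes in the 3 treatment comparisons and in each batch against the mean of the other 4, with genes at an adjusted p under 0.02 in red, the median of the 80 genes as a black line and the median of all tested genes as a dashed green line. The treatment medians lie within 0.04 of 0, while the batch 2 and batch 4 medians lie at 0.18 and -0.23. Library sizes taken from the 80 genes themselves bring their batch medians near 0 by construction.

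The share and the levels of these genes differed between batches. The share of counts on the 80 genes was 11.7% ± 0.306 in batch 1, 12.9% ± 0.385 in batch 2, 12.7% ± 0.255 in batch 3, 10.98% ± 0.0658 in batch 4 and 12.3% ± 0.178 in batch 5 (SD, n = 3 each). The means spanned 1.90 percentage points, with p = 0.000139 in an exact permutation test that exchanged batches within treatment groups (14400 arrangements, smallest possible p 6.94e-05). By edgeR's test over the 5 batches, 73 of the 80 genes (91.2%) differed between batches, where 53% of all tested genes did. The 7 genes not called were rps-24, rps-17, rpl-29, rpl-39, rps-28, rpl-18 and rpl-24.2.

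Batch 4 had the lowest levels of nearly the whole family. Against the mean of the other 4 batches, edgeR called 73 of 80 genes lower (12.5% of all tested genes) and 1 higher, rpl-42 (20.9%). The median was -0.23 for the large and -0.23 for the small subunit, and 0.03 over all tested genes. For 44 of the 80 genes all 3 libraries of batch 4 lay below the other 12 libraries, which held for 3.61% of all tested genes. The mean of batch 4 was the lowest of the 5 batches for 76 genes, and within the untreated, DMSO and UA groups alone it was lowest for 73, 72 and 76 genes.

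The changes in batch 4 were widest in rpl-37 (-0.47, edgeR adjusted p = 0.0173), rps-0, rpl-19, rpl-36 and rpl-43. RPS-0 is the homologue of the mammalian small-subunit protein SA, and rps-0 lies on chromosome III from 4753007 to 4754051. Its level in batch 4 was 1359.9 CPM in untreated, 1359 in DMSO and 1567 in UA larvae, and 1590.3 to 2287 CPM in the other 12 libraries. The batch therefore lay below all others, with a log2 fold change of -0.43 ± 0.0471 (edgeR adjusted p = 5.01e-07). For rpl-19, on chromosome I from 5484779 to 5486354, the 3 libraries gave 1513, 1413 and 1569 CPM, and the other 12 gave 1739 to 2453 CPM (-0.42 ± 0.043, edgeR adjusted p = 2.02e-07). For rpl-36 they gave 681, 621 and 612 CPM, against 709 to 1129 CPM elsewhere (-0.42 ± 0.0591, edgeR adjusted p = 1.19e-05).

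The stalk genes and ubl-1 lay near the family median of -0.23 in batch 4. With TMM factors rla-0 gave -0.22, rla-1 -0.23, rla-2 -0.21 and ubl-1 -0.22 (edgeR adjusted p = 0.00209, 6.36e-05, 0.00137 and 0.013). For rla-1 the 3 libraries of batch 4 lay at 1595, 1576 and 1539 CPM, below the 1675 to 2093 CPM of the others, while for rla-0, rla-2 and ubl-1 the ranges overlapped. With the summed counts of the 80 genes as library size, which brings the family median to 0 by construction, rla-0, rla-2 and ubl-1 were at 0.01, 0.02 and 0.00. The gene rps-6, which encodes the small-subunit protein phosphorylated by S6 kinase, is named after its values were seen. It was at 1262, 1266 and 1335 CPM in batch 4 and at 1445 to 1808 CPM elsewhere (-0.28 ± 0.0417, edgeR adjusted p = 1.85e-05).

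Batch 2 had the highest levels. All 80 genes had a log2 fold change above 0 against the mean of the other batches (median 0.18, all tested genes -0.00), and edgeR called 51 of them higher (63.7%, against 8.33% of all tested genes) and 0 lower (5.01% of all tested genes). In 12 genes all 3 libraries lay above the other 12 (15%, against 1.36% of all tested genes). The gene with the largest change was rpl-25.2, which encodes a protein at the mouth of the tunnel through which the new chain leaves the ribosome. It lies on chromosome I from 8329062 to 8329647. Its level in batch 2 was 820.0 CPM in untreated, 830.1 in DMSO and 806 in UA larvae, and 429 to 630.5 CPM in the other 12 libraries (0.58 ± 0.048, edgeR adjusted p = 1.67e-07). For rpl-13 the values were 2092, 2180.2 and 2045 CPM, against 1228 to 1828 CPM elsewhere (0.46 ± 0.0458, edgeR adjusted p = 1.18e-06). Both genes stood clear of all other libraries in each treatment group. Without the DMSO libraries edgeR called 19 of the 80 genes in batch 2 (4.15% of all tested genes in either direction), and without the untreated libraries 23 (6.12%).

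Batches 1, 3 and 5 held few calls. In batch 1 edgeR called rpl-42 higher (0.58) and rpl-11.2 lower (-0.15), which is 1.25% in each direction where 17.5% and 8.24% of all tested genes were called. In batch 3 it called rps-0 (0.20), rpl-15 (0.16) and rpl-11.2 (0.15) higher and rpl-42 lower (-0.48), against 7.64% and 12.4% of all tested genes. In the same batch 78 of the 80 genes were above 0 with a median of 0.10, and 46 had an unadjusted edgeR p under 0.05 in that direction (57.5%, against 15.1% of all tested genes). The count for batch 3 moved from 0 to 20 over the settings tried. In batch 5, 5 genes were lower (rpl-42, rpl-25.2, rpl-11.1, rpl-13 and rps-5) and 2 higher (rpl-25.1 and rpl-11.2), which is 6.25% and 2.5% where 22.7% and 18.2% of all tested genes were called.

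**Figure D4:**
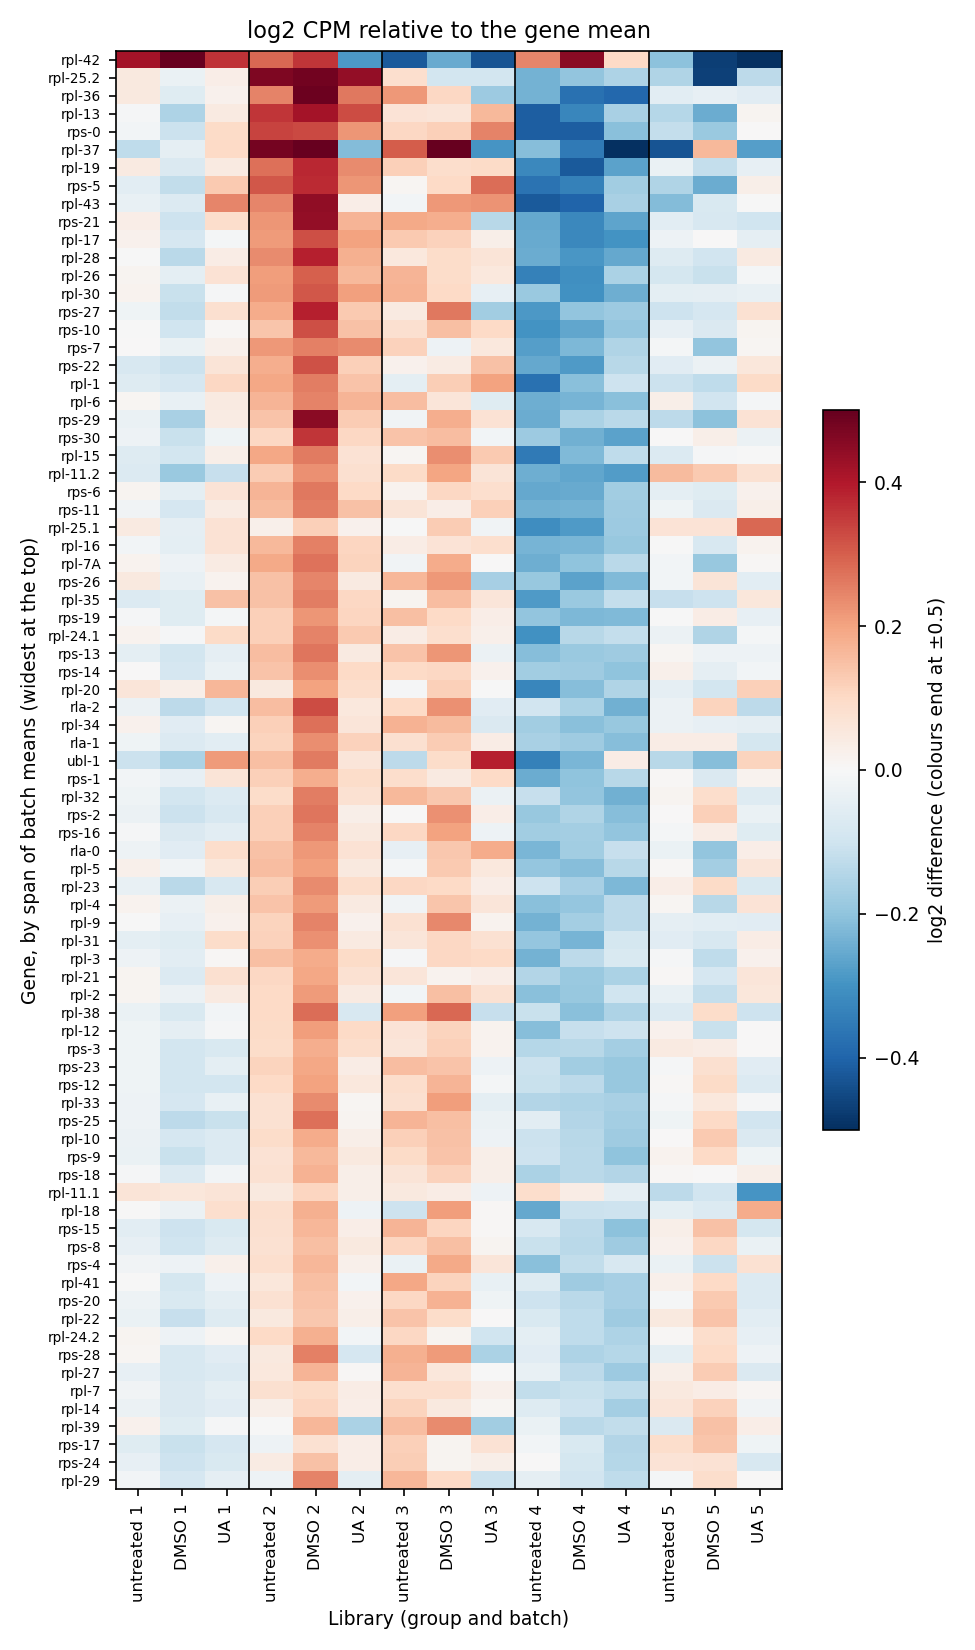
Log2 CPM of each of the 80 genes in each library minus the mean of that gene over the 15 libraries, with libraries ordered by batch and genes by the span of their batch means. The colours end at ±0.5. Batch 2 is red and batch 4 blue for nearly all genes. In batch 4, rpl-42 at the top and rpl-11.1 in the lower part are exceptions. In the UA library of batch 2 some genes are blue, among them rpl-42 (-0.285), rpl-37 (-0.215) and rpl-39 (-0.157). The direction of a whole column depends on the library size used.

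The span of the 5 batch means was 0.15 to 0.94 on the log2 scale, with a median of 0.33. It was widest for rpl-42 (0.94), rpl-25.2 (0.71), rpl-36 (0.67), rpl-13 (0.67) and rps-0 (0.64), and narrowest for rpl-29, rps-24 and rps-17 (0.15 each), rpl-39 and rpl-14 (0.17 each). The small proteins RPL-29 and RPL-39 belong to the large subunit, and RPL-39 lines the exit tunnel. The level of rps-17 was 1517, 1451 and 1382 CPM in batch 4 and 1418 to 1683 CPM in the other libraries, so that 2 of the 3 lay within the range of the others and the UA library lay below it. Over the 15 libraries the log2 CPM of a gene correlated with the mean of the other 79 with a median r of 0.89, and 62 of the 80 genes were over 0.8. The lowest values were -0.19 for rpl-42 and 0.19 for rpl-11.1. These correlations describe libraries that share batches and scaling and were not tested.

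The genes rpl-37 and rpl-42 had the lowest levels of the family. Both are counted at low depth, with 70 to 263 reads per library for rpl-37 and 25 to 124 for rpl-42. The gene rpl-42 lies on chromosome II from 11092713 to 11094022. Its level was 4.56, 5.23 and 4.39 CPM in batch 1 and 4.03, 4.67 and 3.64 CPM in batch 4, in the order untreated, DMSO and UA. In batch 5 it was 2.94, 2.43 and 1.96 CPM and in batch 3 it was 2.52, 2.84 and 2.5 CPM. In batch 2 it was 4.17, 4.37 and 2.77 CPM. It was called higher in batches 1 and 4, where it was the only gene of the family called higher, and lower in batches 3 and 5. The gene rpl-37 lies on chromosome III from 3528642 to 3528917. It had 4.93 to 9.34 CPM in untreated, 5.21 to 12.0 CPM in DMSO and 4.69 to 7.15 CPM in UA larvae, so the ranges overlapped. Its log2 fold change between UA and DMSO was -0.50 ± 0.144 (edgeR adjusted p = 0.125), with a higher UA library in 1 of 5 batches.

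Levels relative to the rest of the family were compared with the summed counts of the 80 genes as library size. This scaling moved the median of all genes to -0.19 in batch 2, -0.11 in batch 3 and 0.25 in batch 4. Under it, edgeR called 20 of the 80 genes between batches (25%, against 76.5% of all tested genes). In batch 4, 9 genes were lower than the family (rps-0, rpl-19, rpl-36, rpl-43, rpl-13, rps-5, rpl-17, rpl-26 and rpl-11.2) and 4 were higher (rpl-42, rpl-11.1, rps-24 and rps-17), where 62.5% of all tested genes were called. In batch 2, 10 genes were higher than the family and 3 were lower (rpl-39, rps-17 and rpl-14), where 42.9% of all tested genes were called. The ribosomal protein genes therefore did not move by equal amounts.

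Some proteins of the ribosome are encoded by a pair of copies, and the balance of a pair does not depend on library size. The genes rpl-11.1 (chromosome V from 3585312 to 3586064) and rpl-11.2 (chromosome X from 2241738 to 2242618) both encode a large-subunit protein of 196 residues that binds the small ribosomal RNA of that subunit. In batch 4 rpl-11.1 had 1129, 1088 and 1029.7 CPM and rpl-11.2 had 1248, 1234 and 1216 CPM, in the order untreated, DMSO and UA. In batch 5 rpl-11.1 had 970.0, 994 and 866 CPM and rpl-11.2 had 1647, 1619.5 and 1556 CPM. In every group the copies were closest in batch 4 and farthest apart in batch 5. The mean ratio of rpl-11.1 to rpl-11.2 counts was 0.817, 0.678, 0.670, 0.877 and 0.586 in batches 1 to 5. It differed between batches with an exact permutation p of 0.000139 (0.00111 adjusted over 8 tests) and the span of means was 0.58 on the log2 scale, while the exact p between treatments was 0.695. The ratio tests of this pair and the next were added after the data had been seen. By then edgeR had called rpl-11.1 and rpl-25.2 lower and rpl-11.2 and rpl-25.1 higher in batch 5, so these p-values are not independent support.

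The pair rpl-25.1 (chromosome X from 4715178 to 4715796) and rpl-25.2 also shifted between batches. The mean ratio of rpl-25.1 to rpl-25.2 was 0.559, 0.419, 0.582, 0.532 and 0.729 in batches 1 to 5, with an exact permutation p of 0.000694 (0.00278 adjusted) and a span of 0.80 on the log2 scale. Batch 2 was lowest and batch 5 highest in each group. Between treatments the exact p was 0.0463, or 0.0926 after adjustment. The ratios of rpl-24.1 to rpl-24.2 (exact p = 0.140 between batches, 0.187 adjusted) and of rpl-7 to rpl-7A (0.0323, 0.0861 adjusted) did not pass the threshold of 0.05 after adjustment. The last pair shares a name stem and encodes different proteins. As RPL-24.2 resembles an assembly protein, rpl-24.1 and rpl-24.2 are also not taken as copies of the same ribosomal protein. Sharing of reads between copies was not tested.

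**Figure D5:**
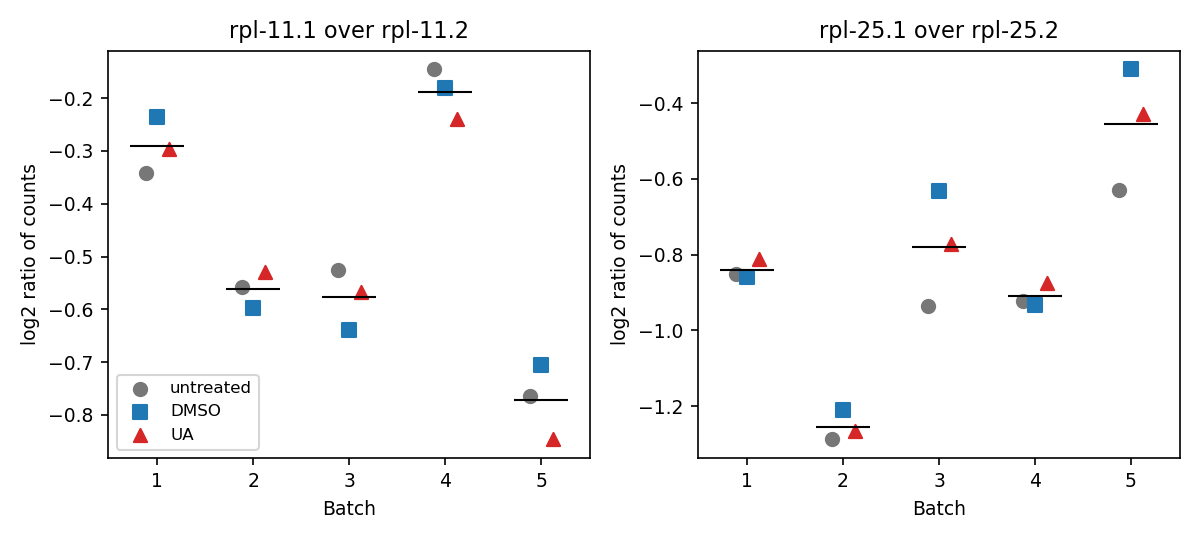
Log2 ratio of the counts of rpl-11.1 to rpl-11.2 (left) and of rpl-25.1 to rpl-25.2 (right) in each library by batch, with the batch mean as a line. Libraries of a batch lie close together in the left panel (largest SD within a batch 0.071) and are wider apart in the right panel (0.161). The batch means of the left panel run from -0.77 in batch 5 to -0.19 in batch 4. Those of the right panel run from -1.25 in batch 2 to -0.46 in batch 5.

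Other genes of translation gave 0 calls by edgeR in the treatment comparisons. Of the 65 mitochondrial ribosomal protein genes, 6, 2 and 3 had an unadjusted edgeR p under 0.05 for these comparisons in the order UA with DMSO, UA with untreated and DMSO with untreated. The 25 initiation factors gave 5, 1 and 2, the 6 elongation factors 1, 1 and 0, the 22 ribosome biogenesis genes 2, 1 and 1, the 20 transfer RNA synthetases 2, 1 and 0, and the 11 other ribosome-linked genes 1, 2 and 0. Of all tested genes 14%, 12.3% and 7.91% had such a p in the same order, and 0.271%, 1.05% and 0.121% were called. These lists were not run with DESeq2.

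Several of these lists were also low in batch 4, beside a background of 12.5% lower. Of the mitochondrial ribosomal protein genes 34 of 65 were lower and 0 higher (median -0.15), of the initiation factors 14 of 25 (-0.14), of the elongation factors 5 of 6 (-0.19), of the synthetases 5 of 20 (-0.09) and of the other ribosome-linked genes 5 of 11 (-0.12). Examples were icd-2, a subunit of the complex that meets new chains at the tunnel exit (-0.29 ± 0.036, edgeR adjusted p = 2.96e-06), ubq-2, a ubiquitin fused to a large-subunit protein (-0.28 ± 0.0454, 5.14e-05), and eef-1B.1, an elongation factor (-0.20 ± 0.0372, 0.000256). The biogenesis genes gave 0 lower and 1 higher of 22 (median -0.01), and fib-1, the fibrillarin that modifies ribosomal RNA, had -0.03 ± 0.0388 (edgeR adjusted p = 0.569). In batch 5 the biogenesis genes gave 10 of 22 lower (median -0.13), with fib-1 at -0.21 ± 0.0394 (edgeR adjusted p = 0.000228), beside a background of 22.7%. In batch 2, edgeR called 6 of 22 biogenesis genes, 9 of 25 initiation factors and 4 of 6 elongation factors higher. It also called higher 6 of 65 mitochondrial ribosomal protein genes, 3 of 20 synthetases and 3 of 11 other ribosome-linked genes. Of all tested genes 8.33% were called higher and 5.01% lower, and 1 synthetase was called lower. The mitochondrial list lay near the background of higher calls.

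The genes outside the family whose log2 CPM followed its mean most closely over the 15 libraries were Y38F2AR.9 (r = 0.984), cco-2 (0.971), which encodes a cytochrome c oxidase subunit, his-35 (0.955), a histone gene, F26E4.6 (0.954) and F36A2.7 (0.954). These values are a description over libraries that share batches.

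Several marker lists of stage and cell type also differed between batches, where edgeR called 53% of all tested genes. It called 30 of 30 tested sperm, 10 of 10 oocyte and yolk, 7 of 7 germline, 117 of 120 cuticle and 5 of 5 moulting genes. For intestine, neurons and muscle it called 5 of 6, 3 of 6 and 1 of 5. Sums hide members that went opposite ways, such as mlt-10 (-0.58) and noah-2 (0.55), or ges-1 (-0.19) and pept-1 (0.44), in batch 5. Sperm genes took 0.148%, 0.117%, 0.083%, 0.144% and 0.056% of counts in batches 1 to 5, and oocyte and yolk genes took 0.284%, 0.099%, 0.047%, 0.116% and 0.043%. Cuticle and hypodermis genes, mostly collagens, took 3.68%, 3.37%, 2.39%, 3.51% and 2.08%, and moulting genes 0.176%, 0.211%, 0.281%, 0.177% and 0.261%. Germline genes took 0.144% to 0.188%, intestinal genes 0.509% to 0.615%, muscle genes 1.23% to 1.35% and neuronal genes 0.030% to 0.036% of counts as batch means. Of the listed genes, 0 to 2 sperm genes and 12 to 24 cuticle genes had 0 counts in a library. The part of these markers in the batch differences of the ribosomal protein genes was not tested, and in whole animals fewer cells of a type cannot be told apart from less RNA per cell.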

How the data were processed

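RNA-seq of 15 libraries was used. According to the study's methods and the processing notes of the submitters, single-end reads were mapped to WBcel235 with STAR 2.5.2b, duplicates were marked with Picard, and reads on exons were assigned to genes with featureCounts 1.5.2. The authors deposited raw counts per gene, with no normalization, and all values given here start from them. The table held 0 columns of other samples.

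The 80 genes and all lists were chosen with earlier results of these data known. Genes with at least 10 counts in 1 library and at least 1 CPM in 3 libraries were tested (14037 of 20541), in a fit of all 15 libraries (edgeR 4.0.16, R 4.3.3) with factors from TMM, the quasi-likelihood test without the robust option, group and batch as terms, and a false discovery rate of 0.02. The study names its tool, filter and threshold but no batch term. Contrasts were the 3 pairs of groups and each batch against the mean of the other 4. SE is the log2 fold change over the square root of F. Log2 CPM used a prior count of 2. The libraries of a batch deviated together from their group means (r = 0.413 to 0.844 across genes), so the batch numbers pair the samples. Shares and copy ratios were compared by exact two-sided permutation or sign-flip tests. The methods call the replicates independent, without saying how cultures were kept apart.

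Genes were named by rule: rla-0, rla-1, rla-2, ubl-1, copies, called or extreme genes of each contrast, the 5 highest and lowest by level and by batch span, and those against the majority of a batch. rps-6 and single genes of small counts were named after their values were seen. Positions and exon lengths come from the Ensembl annotation, release 115, of the same build, in which rpl-41 is named rpl-36.A. The fit was tested on simulated counts with 200 changed genes. Alternatives were DESeq2 1.42.0, RLE factors, TMM factors without the 80 genes, their summed counts as library size, no filter, a false discovery rate of 0.05, no batch block, and leaving out libraries, batches or groups. Leaving out a group or the UA library of batch 4 or 5 in the batch contrasts, and the copy ratios, were added after seeing the data. No sequences were used here.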

Additional observations from a re-analysis of the deposited data

Results flagged for a closer look

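Each treatment group was searched by Dixon's criterion for 1 library far from the other 4, for the share of counts and for named genes. This held in 3 of 48 sets of 5 libraries, all 3 of a named gene, where chance gives about 1 in 20, or 2.4 sets. The level of rpl-11.1 in the untreated library of batch 5 was 970.0 CPM, against 1097 to 1129 CPM in the other untreated libraries. The level of rpl-25.1 in the untreated library of batch 4 was 266 CPM, against 329.6 to 346 CPM. The level of rpl-25.2 in the UA library of batch 2 was 806 CPM, against 533 to 608 CPM.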

How the results depend on the processing

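The count of ribosomal protein genes called between UA and DMSO was 0 in all alternatives except some that left out libraries (0 to 2), and between DMSO and untreated it was 0 in all. Between UA and untreated it was 1, ubl-1, at a false discovery rate of 0.05, without the filter, with the summed counts of the 80 genes as library size and by DESeq2, and 0 to 4 when a library or batch was left out. The highest counts came without the UA library of batch 2. Without the batch block the 3 counts remained at 0, with 3, 1 and 0 genes at an unadjusted p under 0.05. The share of counts gave log2 differences of -0.0387 to 0.000138 between UA and DMSO and -0.00675 to 0.0223 between DMSO and untreated when a batch was left out, turning sign without batch 2 in both and without batch 5 (-0.00189) in the latter. Without the pairing by batch the exact permutation p was 0.802, 0.833 and 0.921.

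Between batches the count was 20 with the summed counts of the 80 genes as library size, 41 without the untreated libraries and 45 to 76 when a library or batch was left out, with 45 without batch 4. With that library size, which centres the family near 0 by construction, the counts in batches 2, 3 and 4 were 13, 1 and 13, and genes near the family median turned sign, rla-0 to -0.00324 in batch 2 and 0.0102 in batch 4, rla-2 to 0.0202 and ubl-1 to 0.00405 in batch 4. In batch 3 the count was 20 at a false discovery rate of 0.05, 20 with RLE factors, 20 without the filter, 13 with TMM factors without the 80 genes, 13 without the UA libraries, 0 without the DMSO libraries (37 at an unadjusted edgeR p under 0.05), 0 without the untreated libraries (13) and 7 to 8 when a UA library was left out. Without the DMSO libraries the counts in batches 1, 2 and 5 were 1, 19 and 4, and without the untreated libraries they were 1, 23 and 4, with 42 in batch 4. Leaving out groups leaves fewer samples in the fit. The share of all tested genes called moved with the setting too. Between batches it was 53% with TMM factors and 76.5% with the summed counts of the 80 genes as library size. With the latter it was 42.9% in batch 2 and 62.5% in batch 4. For most other settings it is not given here, so the counts of this section show dependence on the processing only. Of 507 values of single genes under an alternative, 436 kept their direction and side of the threshold, 56 lost a call, 11 gained one and 4 turned sign. Depth limits rpl-37 and rpl-42 most, and the intervals of tests cover the spread between these libraries only.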
